A study of Mus musculus with 13 samples.

Results

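The comparison described here sets adrenal glands taken 8 weeks after tamoxifen (TAM, a drug used to switch on gene deletion in adult mice) against adrenal glands taken before it, over every gene that both groups' tables list. It uses 9 of the 13 libraries of the series, "Before TAM" 1 to 5 and "8 wk after TAM" 1 to 4, and 14605 genes (19655 transcripts). Both groups are of the strain C57BL/6 and the tissue adrenal gland, and the labels count time from the knockout of Star, with the first group as the state before it. The 4 libraries from 24 hours after TAM do not enter the fit. Age, sex, the alleles, the recombinase and its promoter, the dose of TAM and any pooling of glands are not given in the sources used here. The labels do not say whether the libraries of a group came from separate animals, and the p-values therefore cover only the spread among these samples, which may be technical. Mice given TAM without the deletion are not analysed here, and the effects of 8 weeks of time, of the drug and of the deletion cannot be told apart. Listed reads ranged from 17331673 to 25771905 per library. Levels are FPKM as deposited (fragments per kilobase of transcript, scaled to library depth), and fold changes come from edgeR's quasi-likelihood test on counts, called at a Benjamini-Hochberg adjusted p under 0.05 and written as log2 with the standard error (SE).

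The adrenal gland has an outer cortex that makes steroid hormones from cholesterol and an inner medulla of chromaffin cells that release catecholamines. Star carries cholesterol to the inner mitochondrial membrane, the step that limits steroid output, and without it cortical cells fill with unspent cholesterol esters. Loss of human STAR causes lipoid congenital adrenal hyperplasia, the disease named in the title of the series. Macrophages that take up lipid and cell debris are known for high levels of lysosomal, iron-storage and lectin genes. In bulk tissue, fewer cells of a type and less RNA per cell cannot be told apart.

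Libraries that stood apart were read first, from 16 marker lists of cell types that an adrenal sample could hold. The 10 cortex markers were all measured and their summed level was 19101 to 31411 FPKM before and 1885 to 4843 at 8 weeks, and 10 of 10 were called lower, so the tissue carried the markers of its label most strongly before TAM. Replicate 3 at 8 weeks held liver transcripts. Its albumin gene Alb stood at 13283 FPKM, against 0.291, 6.64 and 0.787 in the other 8-week libraries and 978 in before replicate 5, the next highest. In that library 144 genes were at least 4 times as high as in every other library, at 5 FPKM or more, and they took 7.93% of its reads. Replicate 1 at 8 weeks had 27 such genes with 0.774% of its reads, among them the pancreatic protease genes Cela1 (1097 FPKM, next 73.9) and Cpb1 (960.3), the neutrophil gene S100a8 (987) and the B cell gene Cd79a (22.2). Before replicate 1 had the fewest fat-cell reads, with a summed marker level of 48.0 FPKM against 1002 to 1149 in the other before libraries and 4742 to 9137 at 8 weeks. The markers of pancreas and liver (4 of 7 measured) summed to 21.4 to 14996 FPKM at 8 weeks and 38.1 to 1131 before. None of these 4 was called, and their median log2 fold change of 4.25 turned to −3.95 without replicate 3 at 8 weeks.

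**Figure D1:**
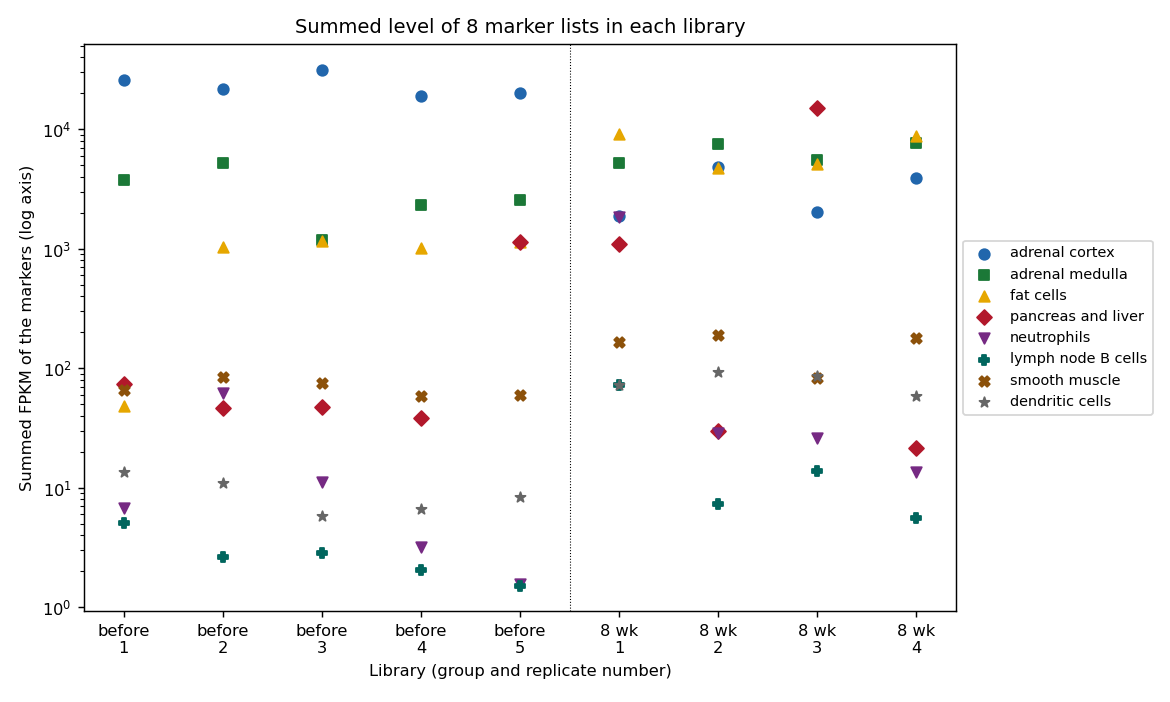
Summed FPKM (log axis) of 8 marker lists in each of the 9 libraries, 1 symbol per list. Cortex markers are at most 4843 in the 8-week libraries and at least 19101 in the before libraries, pancreas and liver markers reach 14996 in 8-week replicate 3, neutrophil markers 1829 in 8-week replicate 1, and fat-cell markers are lowest, at 48.0, in before replicate 1.

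The other marker lists were counted beside the 27.7% of all genes tested that were higher and the 26.4% that were lower. Of the medulla markers 6 of 7 were called higher, with sums of 1182 to 5179 FPKM before and 5175 to 7656 at 8 weeks. Fat-cell markers were higher in 9 of 10, Schwann and sustentacular markers in 9 of 11 with 1 lower, smooth muscle in 7 of 8 measured with 1 lower, mast cells in 6 of 7 measured and dendritic cells in 7 of 8. Lymphatic endothelium had 5 of 7 higher and 1 lower, and skeletal muscle 2 of 2 measured. The counts of several lists rested on single libraries. B cells had 4 of 4 measured higher, but 1 without replicates 1 and 3 at 8 weeks. Neutrophils had 3 of 4 higher, but 1 without replicates 1 and 3 and also 1 without any single one of before replicates 1, 3, 4 or 5 or 8-week replicate 1. Natural killer cells had 2 of 6 higher, and without replicates 1 and 3 edgeR called 0, with 2 at an unadjusted p under 0.05. Near or under the share over all genes were red blood cells (1 of 4 higher), mesothelium and epithelium (1 of 8, and 0 without 8-week replicate 3) and the 1 measured kidney tubule gene, which was not called. With all 13 libraries in 1 fit, whose spread includes the 24 hour libraries, 5 of 10 cortex markers were lower, and 5 fat-cell and 5 Schwann markers were higher. That fit called 0 medulla markers, with 0 at an unadjusted p under 0.05 and a median log2 fold change of 1.28, and 0 mast cell markers, with 4 at an unadjusted p under 0.05. The part of these cells in the gene-level results below was not tested, and counts below are also given without replicates 1 and 3 at 8 weeks, or without these and before replicate 1, where they move by over 1.5 times.

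Star was read first among the genes. It lies on chromosome 8 from 25808513 to 25816119 (mm10, plus strand), and stood at 3207, 3763, 4239, 4083 and 3694 FPKM in the libraries before TAM and at 126, 202, 85.9 and 171 at 8 weeks. All 8-week libraries were below all before libraries (log2 change −4.62 ± 0.28 SE, adjusted p = 7.4e-06). The cortex markers fell in the same libraries, so from this level a deleted gene and less cortical RNA cannot be told apart.

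Across the genome, 7895 of the 14582 genes tested were called (54.1%), 4044 higher (27.7%) and 3851 lower (26.4%). Large changes were more often rises: among genes changed at least 2-fold, 2627 were higher (18% of all tested) and 1056 lower (7.24%), at 4-fold or more 1018 were higher (6.98%) and 340 lower (2.33%), and at 16-fold or more 124 were higher and 52 lower. The median log2 fold change was 1.29 among genes called higher and −0.68 among genes called lower, and that of all genes tested was −0.003. Groups did not overlap in FPKM for 6537 genes (44.8%). Without replicates 1 and 3 at 8 weeks 6138 genes were called, and 6257 when before replicate 1 was left out as well.

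Genes chosen here as at least 2-fold higher held 6.61% to 8.73% of the listed reads in the before libraries and 28.2% to 30.5% at 8 weeks, a direction that their choice fixes. Genes chosen as at least 2-fold lower held 20.3% to 22.3% before and 4.05% to 5.401% at 8 weeks. Before TAM the single most abundant gene by reads was Cyp21a1 in 1 library and Star in 4. At 8 weeks it was the fatty acid desaturase gene Scd1 in replicates 1 and 4, the chromaffin granule gene Chgb in replicate 2 and Alb in replicate 3, where Alb took 3.14% of the reads. Low-level genes rose more often than they fell. With genes split into 4 equal bins by mean level, 37.8% of the lowest bin (median 1.11 FPKM) were called higher and 12.6% lower, whereas in the third bin 20.3% were higher and 35.5% lower. A low-level gene can pass the read filter through the group where it is high alone. The bins also include 495 genes absent from the 24 hour table, of which 340 were higher and none lower. The part of these limits in the split was not tested.

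**Figure D2:**
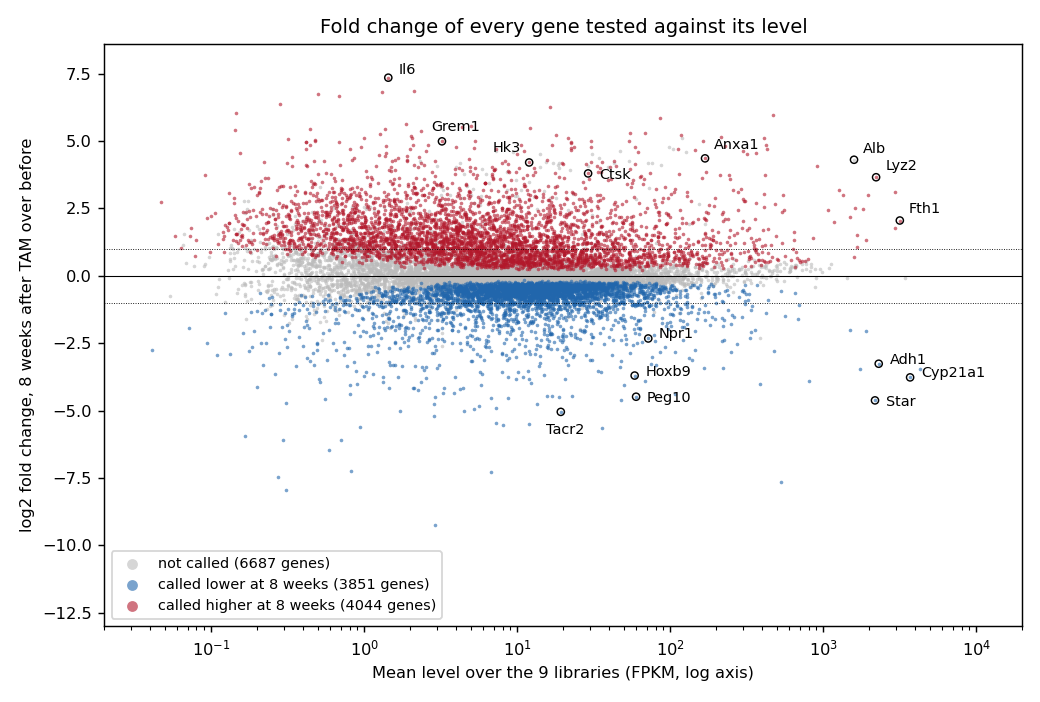
The log2 fold change of each of the 14582 genes tested (8 weeks over before) against its mean FPKM over the 9 libraries on a log axis, with called genes in colour and 15 genes ringed. Beyond the dotted lines at a 2-fold change lie 2627 genes called higher and 1056 called lower, and Alb is ringed as a gene with a high fold change that was not called.

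The 10 largest fold falls are given first, leaving out Star, genes already described from these data and symbols of unnamed loci. They were taken at 5 FPKM or more before TAM from called genes whose groups do not overlap. Tacr2, a receptor for tachykinin peptides, stood at 32.3, 28.6, 24.8, 43.2 and 40.2 FPKM before and 0.572, 1.31, 0.727 and 1.33 at 8 weeks. It was low in every 8-week library and high in every before library (log2 change −5.05 ± 0.29 SE, adjusted p = 5.9e-06). Peg10, an imprinted gene derived from a retrotransposon and expressed from the paternal copy, went from 108, 107, 99.1, 95.4 and 110.4 to 4.10, 4.93, 3.65 and 5.08 FPKM. Its values were tight within each group, and it had the smallest p of all genes tested (log2 change −4.49 ± 0.13 SE, adjusted p = 1.7e-07). Slc30a2, a zinc exporter, fell from 9.995–17.8 to 0.165–0.553 FPKM (log2 change −4.90 ± 0.33 SE, adjusted p = 1.1e-05). Gpha2, a subunit of the glycoprotein hormone thyrostimulin, fell from 7.32–13.8 to 0–0.783 FPKM, with replicate 3 at 8 weeks at 0 (log2 change −4.83 ± 0.64 SE, adjusted p = 0.00025). Nr4a3, an orphan nuclear receptor, fell from 9.36–15.0 to 0.148–0.854 FPKM (log2 change −4.55 ± 0.44 SE, adjusted p = 4.7e-05). Klhl14, a kelch-repeat protein, fell from 16.8–32.5 to 0.2496–1.18 FPKM, and Scube3, a secreted glycoprotein with EGF-like repeats, from 3.30–7.24 to 0.139–0.281 (log2 fold changes −4.75 and −4.48). The cell-surface protein genes Elfn1 and Lypd6 and the gene Trank1 also fell, by 5.03, 4.93 and 4.52 on the log2 scale.

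By difference in level, the falls named here were led by metabolic genes. Cyp21a1, the 21-hydroxylase of corticosteroid synthesis, stood at 8225, 5968, 6852, 5060 and 5297 FPKM before and 311, 679, 239 and 562 at 8 weeks (log2 change −3.77 ± 0.35 SE, adjusted p = 3.5e-05). Adh1, an alcohol dehydrogenase that also oxidises retinol, stood at 3876, 3472, 4198, 3765 and 3868 before and 292, 466.2, 446 and 314 at 8 weeks (log2 change −3.26 ± 0.22 SE, adjusted p = 1.1e-05). Both were low in all 8-week libraries. These genes too were taken from those without overlap of the groups. Mgarp, a mitochondrial protein known from steroid-making cells, fell from 514–1006 to 12.97–74.9 FPKM (log2 change −4.01 ± 0.45 SE, adjusted p = 0.0001). Fads2, the delta-6 desaturase of polyunsaturated fatty acids, fell from 593–856 to 58.2–146 (log2 change −2.77 ± 0.29 SE, adjusted p = 6.4e-05). Akr1cl, an aldo-keto reductase, fell from 938–1650 to 34.2–129.6 (log2 change −3.91 ± 0.41 SE, adjusted p = 6.7e-05). Cyp11b1, the 11-beta-hydroxylase, fell by 3.45 on the log2 scale, with reads that it may share with Cyp11b2. Matrix genes also fell. Pcolce, which enhances procollagen processing, went from 399–600.3 to 63.5–138 FPKM and Sparc, a collagen-binding matrix protein, from 612–1150 to 279–514 (log2 fold changes −2.32 and −1.08). Hspd1, the mitochondrial chaperonin Hsp60, fell from 633–1162 to 180.3–345 FPKM (log2 change −1.51 ± 0.25 SE, adjusted p = 0.00083). Scarb1, the receptor for high-density lipoprotein, was at 572, 940.0, 2250, 548 and 595 before and 192, 476, 232 and 376 at 8 weeks (log2 change −1.598 ± 0.50 SE, adjusted p = 0.022). Replicate 3 stood far above the other before libraries, and the call for Scarb1 was lost without replicate 1 (adjusted p = 0.0596) or replicate 3 (adjusted p = 0.0505) at 8 weeks.

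The falls with the smallest p were in genes whose libraries varied little. Tnfrsf19, a receptor of the TNF family found on progenitor cells of several tissues, stood at 39.4, 34.5, 28.8, 36.2 and 40.6 FPKM before and 3.58, 3.67, 3.08 and 3.75 at 8 weeks (log2 change −3.32 ± 0.11 SE, adjusted p = 3.5e-07). Npr1, the guanylyl cyclase receptor for atrial natriuretic peptide, stood at 126, 118, 110.2, 100.2 and 105 before and 19.6, 24.0, 17.6 and 24.5 at 8 weeks (log2 change −2.33 ± 0.12 SE, adjusted p = 5.9e-06). Both genes kept every 8-week library under every before library. Atp10a, a phospholipid flippase, fell by 3.52 on the log2 scale, the kinase gene Pak6 by 3.12 and the mannosyltransferase gene Dpy19l3 by 1.88, with SEs of 0.12, 0.15 and 0.10.

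**Figure D3:**
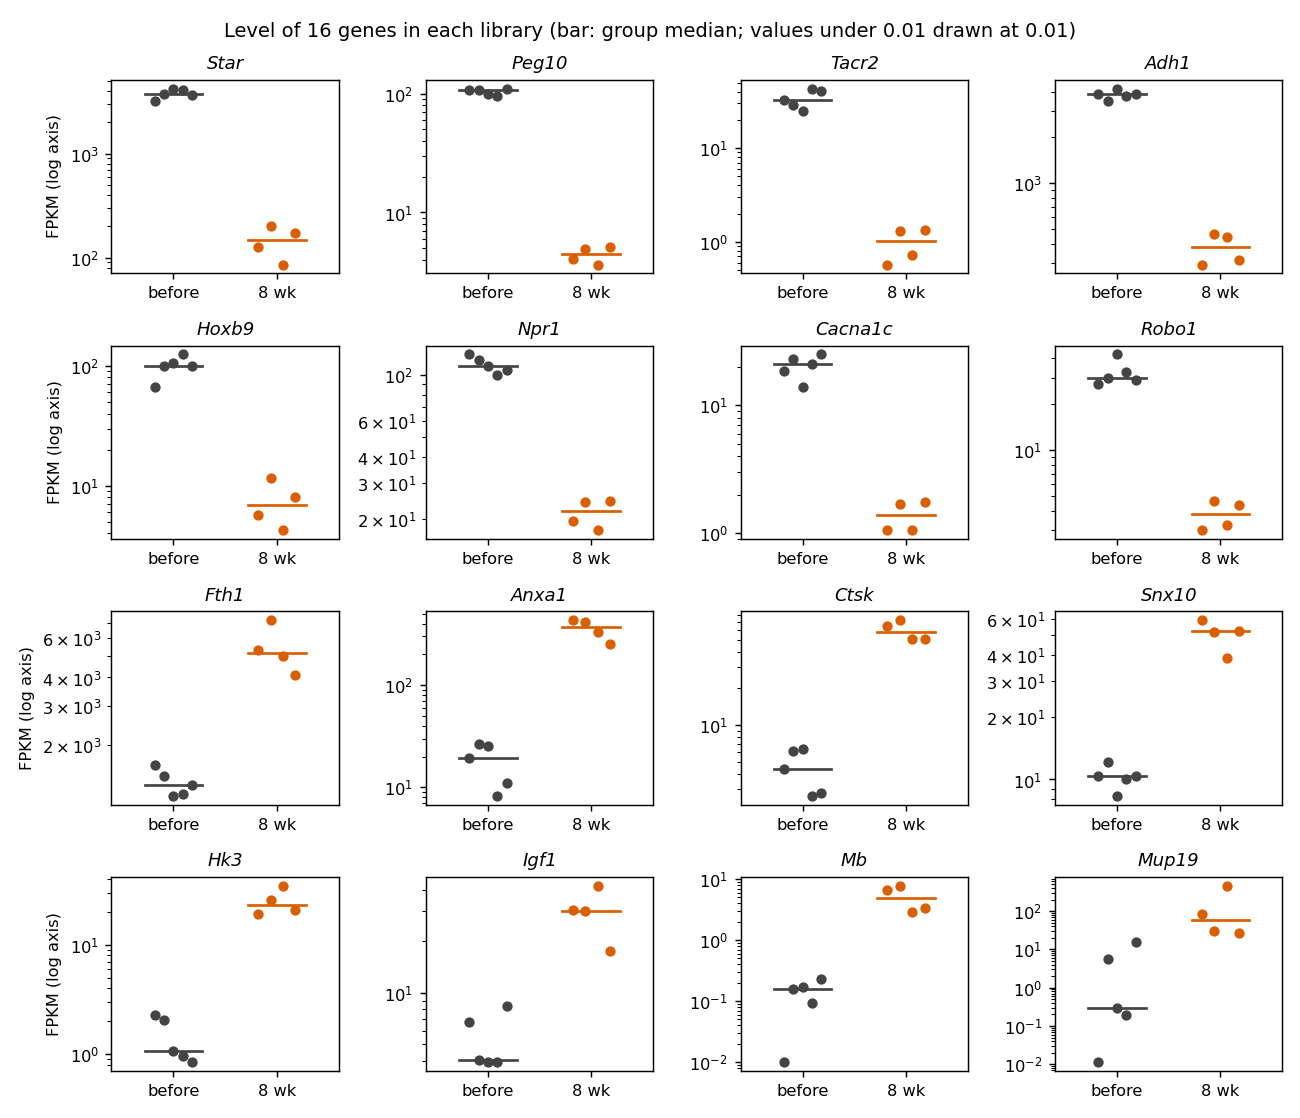
FPKM (log axis, own scale per panel) of 16 genes in the 5 before libraries (grey) and the 4 libraries from 8 weeks after TAM (orange), with a bar at each group's median and values under 0.01 drawn at 0.01. The first 8 genes are lower and the last 8 higher in every 8-week library, and the spread within a group is widest for Mup19.

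One Hox cluster fell as a block. Hox genes code for transcription factors that lie in 4 clusters and mark position along the body axis. All 8 tested genes of the Hoxb cluster were called lower, with a median log2 fold change of −1.73, whereas 3 of 8 Hoxa genes were higher and none lower, 2 of 5 Hoxc genes were higher and none lower, and 1 of 4 Hoxd genes was lower. The cluster was singled out after its values were seen. Hoxb9 stood at 67.3, 99.2, 106, 125 and 99.3 FPKM before and 5.75, 11.6, 4.24 and 8.07 at 8 weeks (log2 change −3.70 ± 0.29 SE, adjusted p = 1.9e-05). Hoxb6 stood at 28.4, 34.3, 27.0, 31.5 and 31.5 before and 5.79, 8.69, 5.00 and 6.95 at 8 weeks (log2 change −2.15 ± 0.14 SE, adjusted p = 9.8e-06). Neither gene's groups overlapped, and Hoxb9 was the more abundant of the pair before TAM and fell farther. Hoxc9 moved the other way at a low level, from 0.213–0.507 to 1.01–1.97 FPKM (log2 change 2.10 ± 0.32 SE, adjusted p = 0.0006). On chromosome 11 from 96251660 to 96306121 (mm10), 6 neighbouring genes, from Hoxb5 to Hoxb9 and Gm53 beside it, were each at least 2-fold lower, the longest such run of falls in the genome. The strand used in counting is not stated, so reads of Gm53 and of overlapping Hoxb genes cannot be told apart.

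Runs of neighbouring genes that rose were longer. Counting tested genes in order along each chromosome, 16 neighbours on chromosome 4 (59805650 to 61782224) were at least 2-fold higher, 13 of them Mup genes, none of which was called without replicates 1 and 3 at 8 weeks. Another 11 lay on chromosome 11 (114851532 to 115181178), 5 of them named Cd300 receptors of myeloid cells, and 8 on chromosome 7 (3712505 to 4282645), the paired immunoglobulin-like receptors Pirb and Pira with Lilra6 and Lair1. Chromosome 6 held a run of 7 Clec4 lectins (122921848 to 123289871) and another of 7 around Clec2d and Cd69. Cd300lb went from 0.553–2.05 to 10.8–16.5 FPKM and Clec4d from 0.970–7.42 to 38.5–96.3 (log2 fold changes 3.62 and 4.01). Members of these families are near-identical in part, and reads shared between them are assigned by estimate. Gm11710 and Gm11711 have the same value in every library. Besides the Hoxb run, falls ran over 5 genes on chromosome 4 (Ptpn3, Palm2, Pakap, Akap2 and D630039A03Rik), and over 4 genes on chromosome 15 (Lynx1, Ly6d, Cyp11b1 and Cyp11b2). Ly6d, a surface protein, fell from 147–243 to 2.18–22.7 FPKM (log2 change −4.39 ± 0.68 SE, adjusted p = 0.0006), and Lynx1, a modulator of nicotinic receptors, from 24.0–38.5 to 4.33–7.68 (log2 change −2.37 ± 0.20 SE, adjusted p = 2.4e-05). On chromosome 5 a run of 4 held the transcription factor gene Tbx3 and its antisense partner Tbx3os2, whose reads cannot be told apart without strand.

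**Figure D4:**
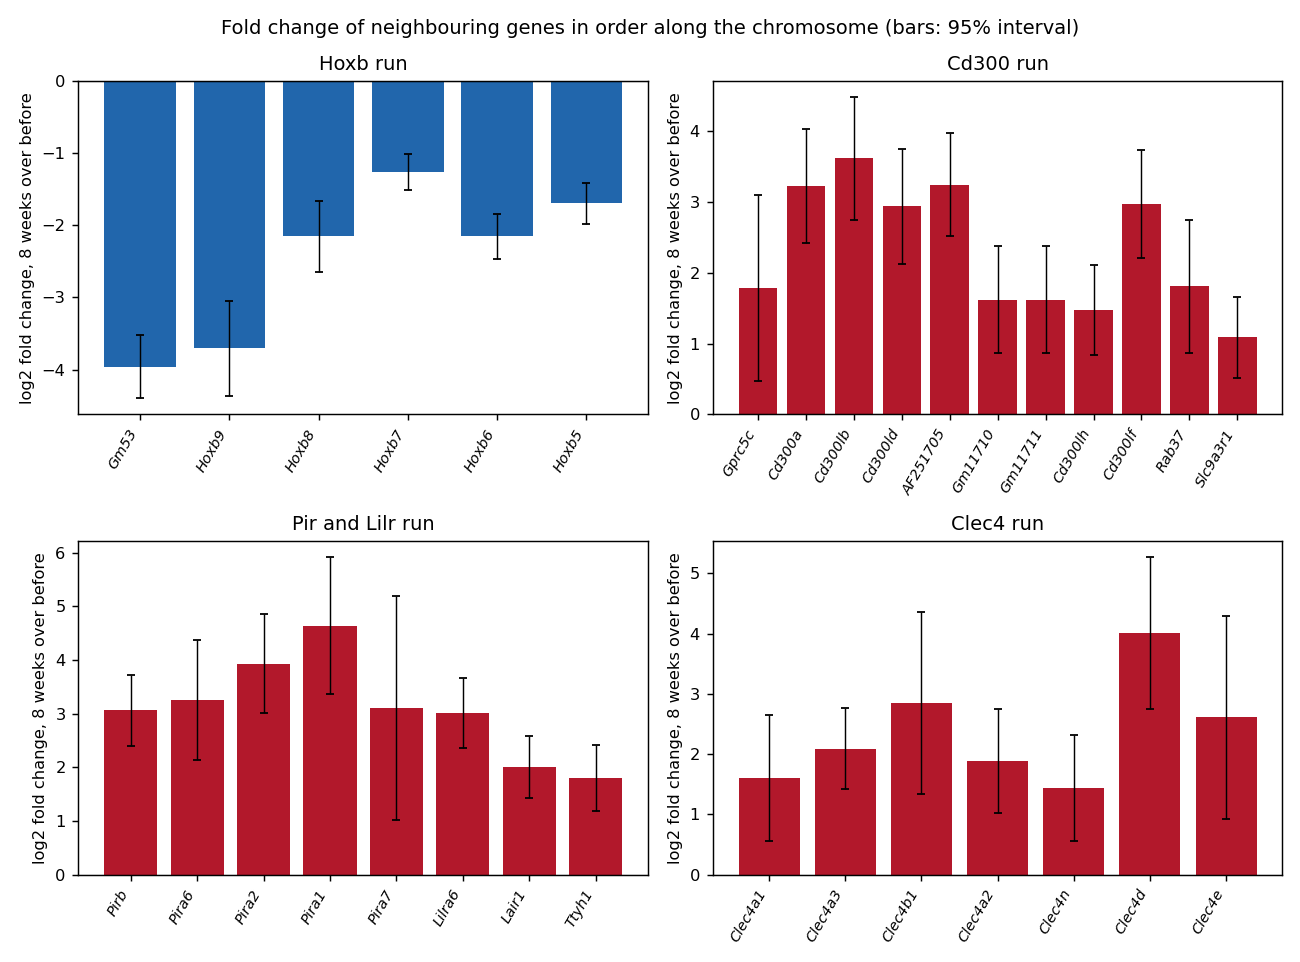
The log2 fold change (8 weeks over before) of each gene in 4 runs of neighbouring genes, drawn in chromosome order with 95% intervals. All genes of the Hoxb run are below 0, from −1.27 to −3.96, and all genes of the Cd300, Pir and Lilr, and Clec4 runs are above 0.

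The 10 largest fold rises were taken at 5 FPKM or more at 8 weeks from called genes whose groups do not overlap. This leaves out larger rises at lower levels and any rise in a gene whose groups overlap, such as S100a8. Genes already described from these data and symbols of unnamed loci were left out here too. Mup genes, which code for lipocalins that the liver secretes and the kidney excretes, supplied 8 of these 10. Mup19 stood at 0.0114, 5.76, 0.293, 0.190 and 15.2 FPKM before and 86.1, 29.9, 448 and 27.3 at 8 weeks (log2 change 5.31 ± 1.48 SE, adjusted p = 0.013). Mup10 stood at 0.0546, 19.5, 1.15, 0.737 and 40.2 before and 398, 107, 801 and 92.6 at 8 weeks (log2 change 4.99 ± 1.46 SE, adjusted p = 0.017). In both the highest library was replicate 3 at 8 weeks, which held the liver transcripts, and among the before libraries replicate 5, which also held some Alb. Alb was at most 6.64 FPKM in the other 8-week libraries, where Mup10 stood at 398, 107 and 92.6. In before replicate 5 Alb was 978 FPKM and Mup10 40.2. The part of liver in the Mup rise was not tested. Over the family, 13 of 14 Mup genes were higher and none lower. Without replicate 3 at 8 weeks 8 of 14 were higher, and Mup16 and Mup1 were among those that lost their call (adjusted p = 0.0618 and 0.0542). Without replicates 1 and 3 at 8 weeks edgeR called 0 of the 14, with 0 at an unadjusted p under 0.05 (adjusted p from 0.11 to 0.515), and the log2 fold change was 2.78 for Mup19 and 3.05 for Mup10.

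The other 2 of these 10 were Mb and Grem1. Mb, the gene of the oxygen-binding muscle protein myoglobin, stood at 0, 0.156, 0.168, 0.0918 and 0.229 FPKM before and 6.64, 7.68, 2.87 and 3.30 at 8 weeks (log2 change 5.38 ± 0.58 SE, adjusted p = 7.7e-05). Grem1, a secreted antagonist of bone morphogenetic proteins, stood at 0.447, 0.570, 0.0854, 0 and 0.0590 before and 2.62, 3.51, 13.96 and 7.69 at 8 weeks (log2 change 4.99 ± 0.89 SE, adjusted p = 0.0013). Both were near 0 in all before libraries. Of 9 skeletal muscle markers, the 2 measured ones, Mb and Tnni2, were both higher, with a sum of 0.166 to 0.400 FPKM before and 4.24 to 9.49 at 8 weeks, and the part of muscle in the rise of Mb was not tested.

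By difference in level the rises named here were led by lysosomal, iron-storage and fat-cell genes, with the matrix gene Mgp among them. Fth1 and Ftl1 code for the heavy and light chains of ferritin, which stores iron. Fth1 stood at 1629, 1461, 1188, 1212 and 1338 FPKM before and 5320, 7177, 5003 and 4103 at 8 weeks (log2 change 2.05 ± 0.19 SE, adjusted p = 3.4e-05), and Ftl1 rose from 1063–2183 to 3971–5839 FPKM (log2 change 1.79 ± 0.23 SE, adjusted p = 0.00023). All 8-week libraries were above all before libraries for both chains, which the choice fixes. The genes of this set were taken from those without overlap of the groups. Lyz2, the lysozyme of macrophages and neutrophils, stood at 486, 646, 375, 152 and 218 before and 4773, 6167, 4331 and 2752 at 8 weeks (log2 change 3.66 ± 0.43 SE, adjusted p = 0.00014). Ctsd, the lysosomal protease cathepsin D, rose from 522–675 to 2174–3007 FPKM (log2 change 2.18 ± 0.18 SE, adjusted p = 2.5e-05). Apoe, the lipoprotein ligand that macrophages secrete when they export cholesterol, rose from 399–871 to 2259–5095 FPKM (log2 change 2.48 ± 0.32 SE, adjusted p = 0.00022). Mgp, a matrix protein that inhibits calcification, rose from 149–518 to 1722–4021 FPKM (log2 change 3.20 ± 0.39 SE, adjusted p = 0.00015). Chgb, a granin of chromaffin granules, rose from 377–1963 to 2318–3386 FPKM (log2 change 1.33 ± 0.38 SE, adjusted p = 0.014), but it was not called with all 13 libraries in the fit (adjusted p = 0.284).

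Genes of fat tissue belong to the same set. Cfd, the adipocyte protease adipsin, stood at 5.99, 641, 691, 479.8 and 648 FPKM before and 5027, 2260, 3391 and 4472 at 8 weeks (log2 change 3.00 ± 0.89 SE, adjusted p = 0.018). Scd1, which makes monounsaturated fatty acids, stood at 19.4, 232, 200.2, 599 and 642 before and 3335, 1174, 2487 and 3337 at 8 weeks (log2 change 3.01 ± 0.79 SE, adjusted p = 0.0098). Car3, a carbonic anhydrase abundant in fat, stood at 9.61, 395, 668, 612 and 947 before and 4687, 1744, 1991 and 3341 at 8 weeks (log2 change 2.53 ± 0.87 SE, adjusted p = 0.032). In all 3 genes before replicate 1 was far below the other before libraries, as it was in the sum of the fat-cell markers. Car3 lost its call when any 1 of before replicates 2, 3 or 4 or 8-week replicates 1 or 4 was left out (adjusted p from 0.0504 to 0.0758), or both of 8-week replicates 1 and 3 (adjusted p = 0.119). Without replicates 1 and 3 at 8 weeks, Cfd (adjusted p = 0.0739) and Scd1 (adjusted p = 0.0512) were not called.

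The rises with the smallest p were at moderate levels and tight within groups. Snx10, a sorting nexin needed for the resorbing membrane of osteoclasts, stood at 10.4, 12.1, 8.29, 10.1 and 10.4 FPKM before and 58.9, 51.9, 38.5 and 52.4 at 8 weeks (log2 change 2.36 ± 0.11 SE, adjusted p = 5.5e-06). Acp5, the tartrate-resistant acid phosphatase, stood at 19.2, 26.5, 21.1, 22.7 and 30.9 before and 162, 175, 163 and 184 at 8 weeks (log2 change 2.90 ± 0.15 SE, adjusted p = 5.9e-06). Fnip2, a partner of folliculin in nutrient sensing, rose from 1.80–2.77 to 13.95–19.7 FPKM (log2 change 2.94 ± 0.17 SE, adjusted p = 5.9e-06). Mfsd7b, a heme exporter, rose from 4.32–5.08 to 13.8–17.2 FPKM (log2 change 1.83 ± 0.10 SE, adjusted p = 5.9e-06). The groups of these 4 genes, chosen by p, lay apart.

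Gene families and pathways were read as counts of members called, beside the 27.7% higher and 26.4% lower over all genes and the median of −0.003. No list was tested as a set. Among receptors and structural genes of leukocytes, 21 of 23 leukocyte cytoskeleton genes were higher and 1 lower (median log2 fold change 2.168), 29 of 39 Lilr, Pir, Cd300, Slam and Ms4a receptors were higher and 2 lower (median 2.76), and 25 of 34 C-type lectins and Siglecs were higher and none lower (median 1.85). Plek, the pleckstrin of platelets and leukocytes, stood at 6.91, 5.53, 4.60, 3.89 and 3.91 FPKM before and 48.0, 42.0, 42.9 and 30.0 at 8 weeks (log2 change 3.11 ± 0.21 SE, adjusted p = 1.1e-05). Clec7a, the beta-glucan receptor dectin-1, stood at 12.3, 10.1, 4.37, 3.65 and 6.23 before and 117, 139.5, 148 and 84.7 at 8 weeks (log2 change 4.15 ± 0.38 SE, adjusted p = 3.5e-05). Both were raised in all 4 libraries. Cd84, a Slam-family receptor, rose by 3.48 on the log2 scale, Pirb by 3.06, the Siglec gene Cd22 by 3.99, and Arhgap25, a GTPase-activating protein of phagocytes, by 3.34. Elmo1, an adaptor of engulfment and cell migration, went against its list and fell from 7.66–11.4 to 3.33–4.74 FPKM (log2 change −1.20 ± 0.17 SE, adjusted p = 0.00032). Ms4a10 fell from 4.87–14.6 to 0.0692–0.720 FPKM, with a log2 fold change of −4.16. Dendritic cell markers, 7 of 8 higher, summed to 5.75 to 13.5 FPKM before and 58.7 to 92.2 at 8 weeks.

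Genes of osteoclasts and multinucleate giant cells were measured for 10 of 15 members, of which 7 were higher and 1 lower (median 2.25). Ctsk, the collagen-degrading cathepsin K, stood at 4.35, 6.14, 6.32, 2.61 and 2.78 FPKM before and 65.1, 72.4, 50.5 and 50.7 at 8 weeks (log2 change 3.80 ± 0.29 SE, adjusted p = 1.8e-05). Tnfrsf11a, the receptor RANK, rose from 0.934–1.31 to 2.66–3.84 FPKM (log2 change 1.599 ± 0.15 SE, adjusted p = 4.3e-05). Car2, the carbonic anhydrase that acidifies the osteoclast's resorption space and is also made elsewhere, fell from 19.8–28.9 to 3.11–5.22 FPKM (log2 change −2.37 ± 0.19 SE, adjusted p = 1.9e-05). Among integrins, 12 of 24 were higher and 5 lower. Itgax, which marks dendritic cells and some macrophages, rose from 1.19–5.66 to 48.0–75.9 FPKM (log2 change 4.24 ± 0.42 SE, adjusted p = 5.3e-05). Itgb2, the shared beta chain of leukocyte integrins, rose by 3.45 on the log2 scale, whereas Itga9 fell by 2.26.

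Calcium- and carbohydrate-binding proteins rose in 20 of 26 annexin, S100 and galectin genes, with none lower (median 1.45). Anxa1, a phospholipid-binding protein known for limiting inflammation, stood at 19.3, 26.7, 25.4, 8.17 and 11.1 FPKM before and 431, 414, 329 and 252 at 8 weeks (log2 change 4.36 ± 0.38 SE, adjusted p = 3e-05). S100a1 rose from 49.3–64.5 to 229–449 FPKM (log2 change 2.63 ± 0.17 SE, adjusted p = 8.6e-06). The list also holds S100a8, carried by replicate 1 at 8 weeks, whose call was lost without that library (adjusted p = 0.51) and also without before replicate 1, 3, 4 or 5 (adjusted p from 0.0537 to 0.0594). Among serpins and cystatins 11 of 27 were higher and 2 lower. Cst3, cystatin C, rose from 294–415 to 601–1011 FPKM, and Serpinb6a, an intracellular protease inhibitor, fell from 317–375 to 154–254 (log2 fold changes 1.23 and −0.79). Of 25 tetraspanins 13 were higher and 5 lower (3 lower without replicates 1 and 3 at 8 weeks), with Cd9 at 2.36, the leukocyte tetraspanin Cd53 at 3.60 and Tspan5 at −1.15 on the log2 scale.

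**Figure D5:**
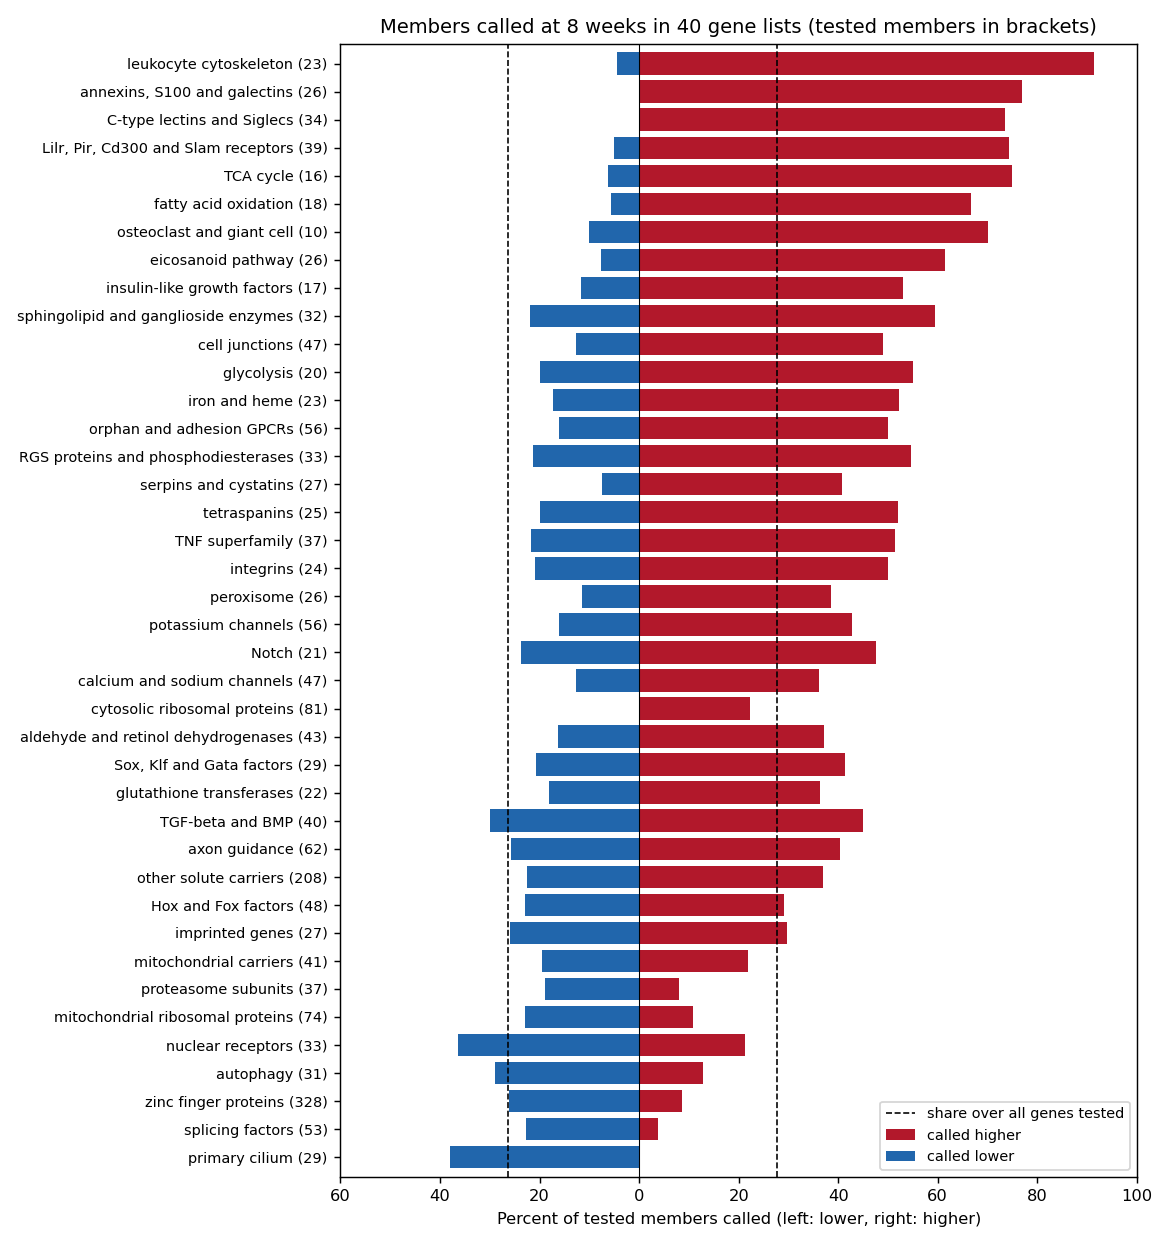
Percent of tested members called higher (right, red) or lower (left, blue) at 8 weeks in 40 gene lists, with the number tested in brackets and dashed lines at the share over all genes tested (27.7% higher and 26.4% lower). Lists are ordered by the difference between the shares, from leukocyte cytoskeleton at the top (21 of 23 higher) to primary cilium at the bottom (11 of 29 lower and 0 higher).

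Genes of mitochondrial energy metabolism were called higher more often than lower. Of 16 genes of the citric acid cycle and pyruvate dehydrogenase 12 were higher and 1 lower (median 0.85), and of 18 of mitochondrial fatty acid oxidation 12 were higher and 1 lower (median 0.95). Pdha1, the catalytic subunit of pyruvate dehydrogenase, stood at 64.6, 86.4, 93.1, 117 and 96.9 FPKM before and 320.5, 222, 173 and 351 at 8 weeks (log2 change 1.59 ± 0.23 SE, adjusted p = 0.00037). Etfb, an electron carrier of fatty acid oxidation, stood at 87.3, 113, 101.4, 133 and 112 before and 288, 332, 227 and 437 at 8 weeks (log2 change 1.61 ± 0.17 SE, adjusted p = 7.9e-05). Replicate 3 was the lowest of the 8-week libraries in both genes, though above all before libraries. The citric acid cycle list summed to 1452 to 1920 FPKM before and to 2897, 2860, 1729 and 3970 at 8 weeks, so replicate 3 lay within the before range. Suclg2, a subunit of succinyl-CoA synthetase, fell from 71.0–88.6 to 33.9–47.1 FPKM (log2 change −0.92 ± 0.15 SE, adjusted p = 0.0007). Cpt1a, which admits long-chain fatty acids into mitochondria, fell by 1.14 on the log2 scale but was not called without before replicate 3 or without replicate 2 or 4 at 8 weeks (adjusted p from 0.0583 to 0.0681). The fat-cell markers, 9 of 10 higher, moved in the same libraries, and their part in these lists was not tested. Glycolysis had 11 of 20 higher and 4 lower, the lower count being 2 without before replicate 4, before replicate 5 or 8-week replicate 3, and 1 without replicates 1 and 3 at 8 weeks. Hk3, the hexokinase of myeloid cells, stood at 2.28, 2.04, 1.06, 0.959 and 0.846 before and 19.3, 25.9, 34.5 and 20.7 at 8 weeks (log2 change 4.20 ± 0.36 SE, adjusted p = 2.6e-05). Ldha, lactate dehydrogenase A, rose from 64.8–118 to 330.1–486 FPKM (log2 change 2.12 ± 0.20 SE, adjusted p = 4.2e-05). In the peroxisome list 10 of 26 were higher and 3 lower, but 6 were higher without before replicate 2 or 8-week replicate 3, and 4 without replicates 1 and 3 at 8 weeks. Scp2, which thiolyses branched fatty acids and binds sterols, rose from 102–126 to 209–340.0 FPKM, and Pex2, a subunit of the peroxisomal import machinery, fell from 31.4–44.6 to 19.5–24.6 (log2 fold changes 1.35 and −0.69).

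Enzymes and receptors of lipid signals came next. In the eicosanoid pathway 16 of 26 were higher and 2 lower (median 1.15). Hpgds, the prostaglandin D synthase of blood-derived cells, stood at 3.84, 2.08, 1.16, 1.6 and 1.89 FPKM before and 15.0, 17.1, 17.6 and 12.2 at 8 weeks (log2 change 2.96 ± 0.31 SE, adjusted p = 6.5e-05). Pla2g7, the lipoprotein-associated phospholipase that degrades platelet-activating factor, rose from 14.02–31.3 to 117–195 FPKM (log2 change 2.67 ± 0.29 SE, adjusted p = 8.1e-05). Tbxas1, thromboxane synthase, rose by 2.10 on the log2 scale. Pla2g5, a secreted phospholipase, fell from 8.58–23.7 to 0.462–1.83 FPKM (log2 change −3.83 ± 0.41 SE, adjusted p = 7.5e-05). Among 32 sphingolipid and ganglioside enzymes 19 were higher and 7 lower (median 0.53). Galc, a lysosomal enzyme which splits galactosylceramide, stood at 5.24, 5.82, 5.56, 6.23 and 5.83 before and 19.3, 18.02, 17.2 and 15.8 at 8 weeks (log2 change 1.68 ± 0.10 SE, adjusted p = 5.9e-06). Smpdl3a, a sphingomyelinase-like phosphodiesterase, rose by 2.19 on the log2 scale. Sptlc2, a subunit of the enzyme that starts sphingolipid synthesis, stood at 49.6, 48.7, 45.9, 51.2 and 49.3 before and 15.6, 17.7, 15.0 and 15.5 at 8 weeks, lower in all 4 libraries (log2 change −1.55 ± 0.08 SE, adjusted p = 5.9e-06).

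Iron and heme genes were higher in 12 of 23 and lower in 4. Beside ferritin, Slc11a1, the iron and manganese transporter of phagosomes, rose from 5.32–12.5 to 50.6–81.0 FPKM (log2 change 3.01 ± 0.27 SE, adjusted p = 3.4e-05), and the biliverdin reductases Blvrb and Blvra, which act after heme is broken down, rose by 1.68 and 1.41 on the log2 scale. Alas1, the first enzyme of heme synthesis, fell from 193–436 to 80.3–119 FPKM (log2 change −1.55 ± 0.23 SE, adjusted p = 0.00047), and Slc25a37, the mitochondrial iron importer mitoferrin-1, from 18.7–25.6 to 8.65–9.57 (log2 change −1.25 ± 0.10 SE, adjusted p = 2.2e-05). Mitochondrial carriers as a family were at the background, 9 of 41 higher and 8 lower, with a median of 0.11 that was −0.02 on the log2(FPKM + 0.1) scale with limma.

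Detoxifying enzymes divided. Of 22 glutathione transferases 8 were higher and 4 lower, and 5 were higher without before replicate 4 or 8-week replicate 2. Gsto1 rose from 42.1–51.3 to 63.8–69.6 FPKM and Gstz1 from 32.8–70.9 to 89.8–159, whereas Mgst3, a microsomal member, fell from 90.0–101.1 to 34.3–51.7 (log2 fold changes 0.57, 1.44 and −1.11). Of 43 aldehyde and retinoid genes 16 were higher and 7 lower, with 10 higher without replicates 1 and 3 at 8 weeks and 13 lower without 8-week replicate 3 alone. Aldh3b1, an aldehyde dehydrogenase of medium- and long-chain aldehydes, stood at 78.4, 88.0, 84.0, 104 and 98.7 before and 11.2, 17.3, 15.95 and 13.1 at 8 weeks, with no overlap (log2 change −2.58 ± 0.17 SE, adjusted p = 9.1e-06). Dhrs3, which reduces retinal to retinol, rose from 28.8–60.6 to 80.7–121 FPKM (log2 change 1.38 ± 0.22 SE, adjusted p = 0.00066). Other solute carriers were higher in 77 of 208 and lower in 47.

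Ion channels and receptors of excitable and endocrine cells changed both ways. Potassium channel subunits were higher in 24 of 56 and lower in 9 (median 0.83), and calcium, sodium and TRP channels in 17 of 47 and 6 (median 0.65, and 11 higher with the 3 libraries left out). Kcnn2, a small-conductance channel opened by calcium, stood at 52.9, 62.5, 57.3, 59.0 and 66.3 FPKM before and 3.72, 7.61, 4.07 and 4.11 at 8 weeks (log2 change −3.55 ± 0.21 SE, adjusted p = 6e-06). Cacna1c, the pore of an L-type calcium channel, stood at 18.7, 23.0, 14.04, 21.0 and 25.1 before and 1.06, 1.69, 1.05 and 1.75 at 8 weeks (log2 change −3.83 ± 0.22 SE, adjusted p = 5.9e-06). The 2 genes were lower in every 8-week library. Most of the rises were from low levels, such as Kcna2, a voltage-gated channel of neurons, from 0.154–0.219 to 0.713–1.01 FPKM (log2 change 2.25 ± 0.15 SE, adjusted p = 1.1e-05), and Scn7a, a sodium channel of glia and neurons, from 2.15–2.87 to 7.42–14.7 (log2 change 2.10 ± 0.16 SE, adjusted p = 1.9e-05). Kcnn4, the related channel of leukocytes, rose from 0.273–0.893 to 3.80–7.31 FPKM (log2 change 3.38 ± 0.36 SE, adjusted p = 6.9e-05). Medulla and Schwann cell markers, 6 of 7 and 9 of 11 higher in the fit of the 9 libraries, moved with the neuronal and glial channels, and their part was not tested.

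Receptors and enzymes of cyclic nucleotide signals followed. Of 33 RGS proteins and phosphodiesterases 18 were higher and 7 lower (median 1.04), the lower count being 4 without replicates 1 and 3 at 8 weeks. Pde2a, which degrades cyclic AMP when cyclic GMP binds it, stood at 90.6, 86.7, 79.3, 87.4 and 93.4 FPKM before and 19.8, 24.9, 20.7 and 30.9 at 8 weeks (log2 change −1.80 ± 0.13 SE, adjusted p = 1.6e-05). Pde4b, a cyclic AMP phosphodiesterase of leukocytes, stood at 2.21, 2.21, 1.69, 1.23 and 1.16 before and 8.81, 8.39, 8.55 and 6.71 at 8 weeks (log2 change 2.30 ± 0.21 SE, adjusted p = 3.7e-05). The 2 genes moved in opposite directions without overlap of groups. Pde4d rose by 3.06 and Pde7b by 1.80 on the log2 scale. Orphan and adhesion receptors were higher in 28 of 56 and lower in 9 (median 1.07). Lgr4, a receptor for R-spondins, fell from 29.7–50.6 to 6.16–9.01 FPKM (log2 change −2.34 ± 0.22 SE, adjusted p = 3.6e-05), and Gpr157, an orphan receptor, rose from 0.855–1.54 to 4.54–4.94 (log2 change 2.12 ± 0.16 SE, adjusted p = 1.8e-05).

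Growth and patterning pathways held single genes with large and opposite changes. In the TGF-beta and BMP list 18 of 40 were higher and 12 lower. Bmp6, a bone morphogenetic protein, rose from 2.48–3.39 to 5.97–8.33 FPKM, Acvrl1, a receptor of endothelial cells, from 5.72–7.69 to 13.4–18.1, and Smad9, a transducer of BMP signals, fell from 7.53–12.8 to 1.26–1.76 (log2 fold changes 1.43, 1.22 and −2.79). Of 17 insulin-like growth factor genes 9 were higher and 2 lower (median 1.24). The ligand gene Igf1 stood at 6.75, 4.02, 3.93, 3.94 and 8.40 FPKM before and 30.5, 30.0, 42.1 and 17.7 at 8 weeks (log2 change 2.51 ± 0.30 SE, adjusted p = 0.00013). Its receptor gene Igf1r stood at 11.8, 17.3, 17.3, 17.5 and 15.3 before and 4.51, 5.19, 4.32 and 6.14 at 8 weeks (log2 change −1.59 ± 0.16 SE, adjusted p = 4.7e-05). Ligand and receptor thus went in opposite directions, each without overlap. Pappa, a protease that frees Igf1 from binding proteins, rose from 0.0181–0.136 to 0.591–1.41 FPKM (log2 change 3.41 ± 0.45 SE, adjusted p = 0.00025). Notch genes were higher in 10 of 21 and lower in 5, among them the target gene Hey2 at 1.63 and Hes6, a neurogenic relative, at −1.95 on the log2 scale. In the TNF superfamily 19 of 37 were higher and 8 lower (5 lower without 8-week replicate 2, and 4 without replicates 1 and 3). Tnfrsf21 and Tnfrsf1b rose by 2.27 and 2.61.

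Guidance and junction genes were next. Axon guidance genes were higher in 25 of 62 and lower in 16. Robo1, a receptor for Slit proteins, stood at 27.2, 29.9, 42.6, 32.6 and 28.9 FPKM before and 2.97, 4.64, 3.25 and 4.35 at 8 weeks (log2 change −3.03 ± 0.20 SE, adjusted p = 1e-05). Sema4d, a semaphorin of leukocytes, rose from 2.09–4.43 to 13.5–19.6 FPKM (log2 change 2.49 ± 0.25 SE, adjusted p = 5.6e-05). Cell junction genes were higher in 23 of 47 and lower in 6 (median 0.96). Cldn5, the claudin of endothelium, rose from 5.38–11.2 to 13.2–23.1 FPKM, and Ctnnd1, the p120 catenin that stabilises cadherins, fell from 48.4–51.6 to 26.2–31.0 (log2 fold changes 1.48 and −0.70). Imprinted genes were at the background, 8 of 27 higher and 7 lower (4 lower without replicates 1 and 3 at 8 weeks), although the list holds Peg10. Nap1l5 rose from 10.9–37.1 to 54.5–88.6 FPKM (log2 change 1.73 ± 0.32 SE, adjusted p = 0.0017), and Plagl1, a zinc-finger regulator of other imprinted genes, from 1.44–2.18 to 2.44–5.64 (log2 change 1.24 ± 0.21 SE, adjusted p = 0.00093). With all 13 libraries in the fit Plagl1 was not called (adjusted p = 0.183).

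Among transcription factors, nuclear receptors were lower more often than higher, 12 and 7 of 33 (median −0.39). Rora, a receptor of the ROR family, stood at 22.6, 13.2, 15.1, 18.4 and 20.2 FPKM before and 5.03, 5.78, 5.31 and 5.83 at 8 weeks (log2 change −1.77 ± 0.17 SE, adjusted p = 4e-05). Esrrg, an orphan receptor of oxidative tissues, fell from 2.99–5.49 to 0.732–1.68 FPKM (log2 change −2.03 ± 0.27 SE, adjusted p = 0.00024). Nr1h3, the oxysterol receptor LXR-alpha, stood at 6.29, 8.79, 6.02, 7.4 and 8.41 before and 25.9, 23.8, 26.0 and 24.6 at 8 weeks (log2 change 1.84 ± 0.13 SE, adjusted p = 1.4e-05). The groups of these 3 genes did not overlap. Sox, Klf and Gata factors were higher in 12 of 29 and lower in 6 (3 without 8-week replicate 1 or replicate 2). Klf4 rose by 1.497 and the glial factor Sox10 by 1.91, and Sox12 fell by 1.23, on the log2 scale. Of 328 zinc finger genes 86 were lower (26.2%, near the 26.4% over all genes) and 28 higher (8.54%, against 27.7%), with a median of −0.18. The higher count was 18 without before replicate 2 or 8-week replicate 3. Without replicates 1 and 3 at 8 weeks the counts were 50 lower and 10 higher. Zfp933 fell from 15.0–34.4 to 3.56–4.81 FPKM (log2 change −2.55 ± 0.25 SE, adjusted p = 4.7e-05), and Zfp53 rose from 2.02–2.32 to 3.17–4.71 (log2 change 0.90 ± 0.14 SE, adjusted p = 0.00072).

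Lists of housekeeping machinery had small median changes. The shares called lower of mitochondrial ribosomal proteins (23.0%), splicing factors (22.6%) and autophagy genes (29.0%) were near the 26.4% over all genes. That of proteasome subunits (18.9%) was under it, and 22.2% of cytosolic ribosomal proteins were higher, under the 27.7% over all genes. Of 81 cytosolic ribosomal protein genes 18 were higher and none lower (median 0.29), with 30 higher without before replicate 3, 11 without before replicate 4, before replicate 5 or 8-week replicate 2, and 10 without the 3 libraries together. Rplp2, a stalk protein, rose from 233–275 to 318–632 FPKM (log2 change 0.95 ± 0.18 SE, adjusted p = 0.0016). Processed pseudogenes share reads with these genes. Mitochondrial ribosomal proteins were higher in 8 of 74 and lower in 17 (median −0.10, and 0.003 without replicates 1 and 3 at 8 weeks). Without 8-week replicate 3, 14 were higher, without 8-week replicate 2, 5 were higher, without before replicate 3, 11 were lower, and without replicates 1 and 3 at 8 weeks, 13 were higher and 7 lower. Mrps11 fell from 35.8–43.3 to 11.9–19.8 FPKM (log2 change −1.32 ± 0.15 SE, adjusted p = 0.00011). Proteasome subunits were higher in 3 of 37 and lower in 7 (median −0.10, and 0.01 without before replicate 3). Psmb8, a subunit of the immunoproteasome, rose from 15.5–30.2 to 48.6–54.0 FPKM (log2 change 1.13 ± 0.17 SE, adjusted p = 0.00045), while Psmd5, an assembly chaperone, fell from 29.8–35.2 to 19.3–24.0 (log2 change −0.48 ± 0.09 SE, adjusted p = 0.0023). The proteasome counts were 7 higher and 4 lower without before replicate 3, and the lower count was 4 without 8-week replicate 1 and 2 without replicates 1 and 3 together. Splicing factors were lower in 12 of 53 and higher in 2, among them Sf3b3 at −0.59 on the log2 scale. Autophagy genes were lower in 9 of 31 and higher in 4. Map1lc3a, which coats autophagosomes, fell from 164–248 to 42.5–91.2 FPKM, and Atg13, a scaffold of the initiating kinase complex, from 31.1–40.2 to 11.8–15.2 (log2 change −1.61 ± 0.20 SE, adjusted p = 0.00018, and log2 change −1.24 ± 0.12 SE, adjusted p = 4.3e-05). Primary cilium genes were lower in 11 of 29 and higher in none (median −0.32). Ift140, a carrier of cargo along the cilium, fell from 6.72–9.99 to 2.52–3.95 FPKM (log2 change −1.29 ± 0.17 SE, adjusted p = 0.00025), and the motor subunit Kif3b from 10.2–13.3 to 6.24–7.25 (log2 change −0.76 ± 0.10 SE, adjusted p = 0.0002).

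Genes with little or no change were counted by interval, whether called or not. For 2619 genes the 95% interval of the fold change lay within 0.5 log2 of 0. The narrowest intervals were sought at a mean of 20 FPKM or more and a log2 fold change between −0.1 and 0.1. The 5 narrowest were those of Maf1, a repressor of RNA polymerase III, Cnot8, a deadenylase, Arpc1a, Eif3g and Cdipt. Maf1 stood at 34.1, 33.6, 32.6, 34.5 and 35.0 FPKM before and 31.2, 34.7, 28.6 and 33.4 at 8 weeks, with overlapping groups (log2 fold change −0.02, 95% interval −0.17 to 0.12). For Arpc1a, a subunit of the actin-nucleating Arp2/3 complex, the log2 fold change was 0.01 (95% interval −0.16 to 0.18).

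Some genes had no transcript in the table from 24 hours after TAM and appear in no fit of all 13 libraries. Of 495 such genes tested, 340 were higher and none lower. Their median level was 0.209 FPKM before and 0.729 at 8 weeks. Only 10 of the 495 had at least 16 reads in 4 or more before libraries, so the choice itself left little room for a fall. Il6, the gene of interleukin-6, had 2 reads in all 5 before libraries and 326 in the 4 libraries at 8 weeks, a ratio of 205 after scaling to depth (95% counting interval 56.3 to 1701). Cxcr1, a chemokine receptor, had 3 and 310 reads (ratio 130, interval 44.1 to 634), and Adcyap1, which codes for the neuropeptide PACAP, had 2 and 213 (ratio 134, interval 36.6 to 1114). The sodium-proton exchanger gene Slc9a4 had 3 and 230 (ratio 96.5, interval 32.6 to 471). These intervals cover counting error only. The genes were named for the size of their rise, and the intervals do not allow for that choice. At 8 weeks Il6 stood at 2.44, 5.09, 2.01 and 3.29 FPKM and Adcyap1 at 0.918, 1.23, 0.588 and 1.71, present in each library. Raet1d, a ligand of the receptor NKG2D, was at 0.763, 0.952, 9.79 and 0.456, with replicate 3 the highest (log2 change 5.44 ± 1.21 SE, adjusted p = 0.0043).

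Noncoding genes, those with only noncoding transcripts, were called higher in 124 of 538 and lower in 82, with a median of 0.07. Both shares were under those over all genes tested, 27.7% higher and 26.4% lower. Dnmt3aos, an antisense RNA at the gene of the DNA methyltransferase Dnmt3a, stood at 0.0294, 0.0880, 0.0253, 0 and 0 FPKM before and 0.454, 1.17, 1.25 and 1.24 at 8 weeks (log2 change 4.99 ± 0.65 SE, adjusted p = 0.00023). Trp53cor1, known as lincRNA-p21, fell from 0.202–0.768 to 0.0448–0.120 FPKM (log2 change −2.34 ± 0.45 SE, adjusted p = 0.0021). Tbx3os2 fell from 0.322–1.76 to 0.0924–0.270 FPKM (log2 change −2.68 ± 0.59 SE, adjusted p = 0.0041). Rps19-ps3, a ribosomal pseudogene, fell by 2.12 on the log2 scale, and Vash2, here with noncoding transcripts only, rose by 4.11. An antisense RNA cannot be told from its partner without strand.

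Transcripts of one gene sometimes moved in opposite directions. Of 3231 genes with at least 2 tested transcripts, 64 had a called rise of one and a called fall of another. At the transcript level 4108 of 19609 were higher (20.9%) and 3791 lower (19.3%). Sgk1, a kinase induced by steroid hormones, had the largest such exchange. Its transcript starting at 21992223 on chromosome 10 rose from 0.891 ± 0.476 FPKM (SD, n = 5) to 17.8 ± 4.18 (n = 4), and the one starting upstream at 21978672 fell from 18.2 ± 2.91 to 1.77 ± 1.25. The log2 fold changes were 4.38 (SE 0.43, adjusted p = 0.00014) and −3.33 (SE 0.49, adjusted p = 0.00103), while the gene as a whole rose by 0.85. Rtn4, whose products shape the endoplasmic reticulum, showed the same pattern. The transcript starting at 29718563 on chromosome 11 rose from 35.7 ± 7.42 to 121 ± 32.7 FPKM, a log2 change of 1.83 with an SE of 0.20, and the one starting at 29692898 fell from 13.5 ± 4.84 to 3.60 ± 1.40 (−1.84, SE 0.38). The gene total for Rtn4 was not called (log2 change 0.29 ± 0.13 SE, adjusted p = 0.078). It was called by DESeq2 (adjusted p = 0.0237), and by edgeR without before replicate 3 (adjusted p = 0.0495) or 8-week replicate 3 (adjusted p = 0.0361). Reads common to transcripts of a gene are assigned by estimate, so each exchange rests on the reads that differ.

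Promoter sequences were read for 10925 of the 14582 genes tested, from RefSeq on GRCm38.p6, taking 250 bases before to 50 after the first listed start. The 4 motifs searched on both strands were CAAGGTCA (bound by SF-1, the product of Nr5a1), GAGGAAGT (bound by PU.1 of myeloid cells), TCACGTGA (the CLEAR box of lysosomal genes) and TGACGTCA (the cyclic AMP response element). GAGGAAGT was found in 55 of 719 promoters of genes at least 4-fold higher (7.65%), against 3.12% of all. CAAGGTCA was found in 8 of 245 promoters of genes at least 4-fold lower (3.27%), against 1.10% of all. TCACGTGA was found in 0.834% of the higher and 0.408% of the lower set against 1.83% of all, and TGACGTCA in 1.11% and 0.408% against 3.19%. A match describes letters in this window, not a site in use. The promoters below, 1 of a gene that fell and 3 of genes that rose, show the 2 motifs in context. Matches in other named genes also went the other way. GAGGAAGT, on either strand, was in the promoters of Elmo1, Psmc1 and Sf3a1, which fell. CAAGGTCA, on either strand, was in those of Cd84 and Clec2d, which rose. Related genes such as Pirb and Lilra6 have near-identical promoters and were counted separately. Aldh3b1 lies on the minus strand of chromosome 19 (window chr19:3929729-3930028) and holds CAAGGTCA from base −41 of its start. Hpgds (minus strand, chromosome 6, chr6:65144681-65144980) holds GAGGAAGT from base −49. Arhgap25 (minus strand, chromosome 6, chr6:87496278-87496577) and Cd53 (minus strand, chromosome 3, chr3:106790100-106790399) hold its reverse complement from bases −11 and 7. Sequences run 5′ to 3′ along the gene, with the motif in capitals.
Aldh3b1: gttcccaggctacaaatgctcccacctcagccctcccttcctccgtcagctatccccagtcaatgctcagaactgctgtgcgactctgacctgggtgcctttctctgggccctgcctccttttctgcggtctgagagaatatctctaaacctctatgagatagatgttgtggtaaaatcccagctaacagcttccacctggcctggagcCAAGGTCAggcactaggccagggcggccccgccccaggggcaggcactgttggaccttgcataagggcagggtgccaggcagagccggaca
Hpgds: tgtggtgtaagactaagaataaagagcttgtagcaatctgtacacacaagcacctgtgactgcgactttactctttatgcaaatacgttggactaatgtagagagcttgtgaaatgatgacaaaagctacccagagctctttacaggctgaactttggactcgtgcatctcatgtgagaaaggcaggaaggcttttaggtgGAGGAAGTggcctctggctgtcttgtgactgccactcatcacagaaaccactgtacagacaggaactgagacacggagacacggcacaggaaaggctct
Arhgap25: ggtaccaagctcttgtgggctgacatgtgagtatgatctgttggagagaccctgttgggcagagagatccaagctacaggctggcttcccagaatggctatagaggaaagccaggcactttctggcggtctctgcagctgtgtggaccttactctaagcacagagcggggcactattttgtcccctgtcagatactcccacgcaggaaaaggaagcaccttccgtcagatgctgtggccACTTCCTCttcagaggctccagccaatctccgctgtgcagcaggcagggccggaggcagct
Cd53: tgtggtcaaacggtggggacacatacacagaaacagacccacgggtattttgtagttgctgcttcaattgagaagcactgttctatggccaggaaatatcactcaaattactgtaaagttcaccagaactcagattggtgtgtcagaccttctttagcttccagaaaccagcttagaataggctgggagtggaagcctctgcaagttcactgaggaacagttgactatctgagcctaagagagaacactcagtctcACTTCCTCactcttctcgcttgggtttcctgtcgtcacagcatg

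The authors' deposited table compares the same 9 libraries transcript by transcript on log2 FPKM. At a q-value under 0.05 and a 2-fold change it held 2374 transcripts higher and 1636 lower, by the authors' deposited table, and the edgeR fit of the same transcripts held 2938 and 1428. Both held 2340 higher transcripts, which is 98.6% of the authors' deposited table and 79.7% of the edgeR calls. For lower transcripts both held 1349, which is 82.5% of the authors' deposited table and 94.5% of the edgeR calls.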

How the data were processed

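RNA from mouse adrenal gland was sequenced from TruSeq Stranded mRNA libraries, per the labels' protocols. The submitters' processing notes name bcl2fastq 2.17, TopHat2 2.0.14 and the build mm10/GRCm38. The counter, its filters and its use of strand are not given in the sources used here. Per the file headers, each deposited table gives an expected count and an FPKM value per transcript and library. The authors' deposited comparison holds log2 ratios of FPKM with p-values and q-values, per the file headers.

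Expected counts were summed per gene over the transcripts listed in both tables, rounded and tested with edgeR 4.0.16 (quasi-likelihood test, TMM scaling, filterByExpr, R 4.3.3), with Benjamini-Hochberg adjustment over all 14582 genes tested and a threshold of 0.05. FPKM was summed per gene. Only the 9 libraries of these groups entered. On simulated counts for this comparison (14240 genes) the fit called 53 of 99 genes changed 2-fold, 88 of 100 changed 4-fold and 10 of 14041 unchanged genes. The simulation took means and spread from the before libraries alone and left most genes unchanged. Pairs of 8-week libraries differed by a chi-square per degree of freedom of 85.0 to 242, against 19.0 to 123 before. These rates may therefore not hold for the data. Alternatives used DESeq2 1.42.0, limma 3.58.1 on log2(FPKM + 0.1), other scaling, no filter, all 13 libraries, a replicate block and leaving out each library. Leaving out replicates 1 and 3 at 8 weeks, with or without before replicate 1, was chosen after seeing the data.

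The comparison, gene lists and naming rules were chosen with earlier results of these data known. The rule took Star, then the 10 largest changes each way by fold (at 5 FPKM or more) and by FPKM difference among called genes without overlap, the 6 smallest p each way, up to 4 members per list, the leading noncoding and isoform-exchanging genes, the leading genes absent at 24 hours and the 5 narrowest intervals, leaving out genes already described from these data and symbols of unnamed loci. Alb, Cela1, Cpb1, Cd300lb, Clec4d, Hoxb9, Ly6d and Lynx1 fell outside it and were chosen after their values were seen. No libraries were duplicates: replicate counts differed by a chi-square per degree of freedom of at least 19.0. 1 result is not reported here.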

Additional observations from a re-analysis of the deposited data

Results flagged for a closer look

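In groups of 4 and 5 libraries, the highest or lowest library was compared with its nearest neighbour by Dixon's 95% critical value for each gene given with values and each marker sum. Of 356 groups 31 had a library that stood apart. Chance gives about 1 in 20 for normally spread, independent values. FPKM values need not be so spread, and the marker sums hold genes that were also checked singly. Some genes, Alb, Cela1, Cpb1 and Ly6d among them, were chosen after their values were seen. The count is therefore a description and cannot be tested against that rate.

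Replicate 3 at 8 weeks stood apart for Alb (13283 FPKM, next 6.643), Mup19 (448.0 FPKM, next 86.1), Raet1d (9.785 FPKM, next 0.952), the lowest value of Pak6 (0.790 FPKM, next 1.21) and the summed markers of pancreas and liver (14996 FPKM, next 1099). Replicate 1 at 8 weeks stood apart for Cela1 (1097 FPKM, next 21.3), Cpb1 (960.3 FPKM, next 3.48), S100a8 (987.5 FPKM, next 17.7), Cd79a (22.2 FPKM, next 5.02), Ly6d (22.8 FPKM, next 5.21), the lowest value of Dnmt3aos (0.454 FPKM, next 1.17), the summed B cell markers (71.5 FPKM, next 13.8) and the summed neutrophil markers (1829 FPKM, next 28.9). Replicate 2 at 8 weeks was the highest for Acvrl1 (18.05 FPKM, next 13.97) and Kcnn2 (7.61 FPKM, next 4.11).

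Among the before libraries, replicate 5 stood apart for Alb (977.6 FPKM, next 5.17), Cpb1 (14.15 FPKM, next 9.599) and the summed pancreas and liver markers (1131 FPKM, next 74.1). Replicate 1 stood apart for the low sum of fat-cell markers (47.96 FPKM, next 1002) and for high Cela1 (73.86 FPKM, next 46.3), Mgarp (1006 FPKM, next 634), Ms4a10 (14.57 FPKM, next 6.47) and Atg13 (40.16 FPKM, next 33.7). Replicate 2 stood apart for S100a8 (28.51 FPKM, next 4.375) and the summed neutrophil markers (61.28 FPKM, next 11.03). Replicate 3 stood apart for Scarb1 (2250 FPKM, next 940), Car2 (28.88 FPKM, next 22.02), Cldn5 (11.25 FPKM, next 6.79), Il6 (0.0644 FPKM, the others at 0), the lowest Arpc1a (59.8 FPKM, next 65.2) and the lowest Pak6 (7.601 FPKM, next 10.2).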

How the results depend on the processing

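Leaving out each library in turn gave 6902 to 7654 genes called (3554 to 3974 higher, 3348 to 3739 lower), 3426 to 3748 at 2-fold or more (2409 to 2694 higher, 929 to 1165 lower) and 6544 to 7541 transcripts called. With all 13 libraries in 1 fit, 5193 genes were called and 2311 were lower, over fewer listed genes and a spread shared with the 24 hour libraries. The share of calls that were higher was 51.2%, 45.4% with no scaling factor and 45.9% with limma on log2(FPKM + 0.1). With replicate number as a block 6414 genes and 4979 transcripts were called. Same-numbered libraries deviated together with correlations of 0.07, 0.03, −0.09 and 0.35, so the numbers were not taken to pair them, and not every library correlated best with its own number. Cxcr2 turned from a call of higher to −0.41 without replicates 1 and 3 at 8 weeks and to −0.53 without these and before replicate 1. Of 266 named genes, 27 lost their call without replicates 1 and 3 at 8 weeks and 18 without the 3 libraries, Cxcr2 among them in both. With all 13 libraries 26 of 247 lost it, among them Scarb1 (adjusted p = 0.133), Cfd (0.0818), Car3 (0.0742), Alas1 (0.0541) and Sox12 (0.0534). In that fit list counts that fell by over 1.5 times included zinc fingers (34 lower and 9 higher), other solute carriers (25 lower and 48 higher), potassium channels (11 higher), mitochondrial ribosomal proteins (7 lower), proteasome subunits (1 lower) and splicing factors (5 lower). With no scaling factor 20 splicing factors and 11 proteasome subunits were lower and 16 zinc fingers higher, and the count of cytosolic ribosomal proteins called higher was 11 with no scaling and 30 with DESeq2. The cause was not tested. At these depths and numbers of libraries 53 of 99 simulated 2-fold changes were called, with the spread taken from the before libraries. A missing call therefore does not show that a gene kept its level.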
